A study of Mus musculus with 2 samples.

Results

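The surface and secreted proteins described here mark adipose progenitors, the fibroblast-like cells from which fat cells form. The 10 genes were listed by symbol with earlier results of these data known, among them Pi16, Cd24a, F3 and Clec11a, whose ratios were known. They are Pdgfra, Pdgfrb, Thy1, Dpp4, Pi16, Ly6a, Cd34, Cd24a, F3 and Clec11a. Each had 1 row in the count tables, out of 23238 distinct gene symbols. RNA came from 3T3-L1, a mouse embryonic fibroblast line widely used as a preadipocyte model, whose cells the labels call adipocytes. In one group the cells were given a control siRNA, and in the other an siRNA to Pink1, which encodes the kinase that starts the clearance of damaged mitochondria. Both were the same line, each gave 1 library, and the dose, the time after transfection and the day of differentiation are not given in the sources used here. A single established line stands in for progenitors here, so these genes describe the state of cultured cells and not the mixture of progenitors in fat tissue.

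Progenitors of white fat carry the platelet-derived growth factor (PDGF) receptor alpha and are commonly divided by surface proteins into several states. Multipotent interstitial cells carry DPP4, PI16, LY6A (Sca-1) and CD34. More committed preadipocytes lose DPP4 and PI16 and gain adipogenic genes. Cells with F3 (tissue factor) and CLEC11A have been described as regulatory cells that restrain fat cell formation. PDGFRB and THY1 are carried by many fibroblasts and mural cells, and CD24 has been used to enrich for early progenitors. The comparison asks how these markers differed between the Pink1 siRNA culture and its control.

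The control library held 13803174 counts and the Pink1 siRNA library 14214768. Levels are given as CPM, counts scaled to a common library size, in which 3 counts, the floor used here for a count of 0, correspond to 0.214 CPM. The exact interval of a count of 0 is 2-sided and reaches 0.263 CPM. Pink1 was at 36.5 CPM in the control library and 25.1 CPM in the Pink1 siRNA library, a ratio of 0.687 (95% counting interval 0.598 to 0.788). The widened interval, defined with the marker ratios, ran from 0.445 to 1.05 and included 1. The cells, which the labels call adipocytes, had the preadipocyte gene Dlk1 at 8326 CPM in the control and 9329 CPM in the Pink1 siRNA library. Of 10 markers of mature adipocytes, 9 had at least 40 counts over both libraries together, and Lep was at 0 in both. Their summed level was 1892 CPM in the control and 2110 CPM in the Pink1 siRNA library, most of it from Fabp4 (1047 and 1196 CPM). Of the 9, ratios were above 1 for 5, among them Retn (1.49) and Cidec (1.25). They were below 1 for 4, among them Plin1 (0.607) and Slc2a4 (0.510). Widened intervals included 1 for all 9. Endothelial markers were near 0 (13 and 7 counts summed, with 5 of 7 markers at 0 in both libraries), and macrophage markers summed to 5.50 and 4.14 CPM, with Adgre1 and Itgam at 0. Mesothelial and epithelial markers summed to 5.28 and 5.85 CPM, Schwann cell markers to 8.14 and 7.14 CPM, and lymphocyte markers to 0 and 0.428 CPM. Mural and smooth muscle markers summed to 325 and 223 CPM, nearly all of it from the actin gene Acta2, and the pericyte marker Rgs5 was at 0 in both.

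Promoters are shown for the measured markers with the largest ratios among those with an entry in the RefSeq table (Pi16 and F3) and for Clec11a, the 1 measured marker with a ratio below 1. The table held 6 of the 10 markers, not Pdgfrb, Ly6a, Thy1 or Cd24a. Each window runs from 250 bases before to 50 after an annotated transcript start, on GRCm38.p6, 5′ to 3′ on the strand of the gene. Capitals mark matches on either strand to the GC box, spelled GGGCGG, the TATA box, spelled TATAAA, the CCAAT box, the AP-1 site, spelled TGACTCA, or the E-box, spelled CACGTG.
Pi16, chr17:29318632-29318931, plus strand: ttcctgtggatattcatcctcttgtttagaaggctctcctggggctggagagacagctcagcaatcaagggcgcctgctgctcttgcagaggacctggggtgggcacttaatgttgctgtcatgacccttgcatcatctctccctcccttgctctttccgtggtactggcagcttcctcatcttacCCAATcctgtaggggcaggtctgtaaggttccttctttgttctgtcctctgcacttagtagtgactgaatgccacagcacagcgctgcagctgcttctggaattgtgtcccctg
F3, chr3:121723287-121723586, plus strand: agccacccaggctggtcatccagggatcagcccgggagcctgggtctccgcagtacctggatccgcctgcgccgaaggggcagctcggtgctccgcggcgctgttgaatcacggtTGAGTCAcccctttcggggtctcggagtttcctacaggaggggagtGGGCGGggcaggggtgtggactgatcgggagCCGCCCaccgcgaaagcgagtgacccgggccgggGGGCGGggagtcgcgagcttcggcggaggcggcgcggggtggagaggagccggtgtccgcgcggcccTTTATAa
Clec11a, chr7:44306910-44307209, minus strand: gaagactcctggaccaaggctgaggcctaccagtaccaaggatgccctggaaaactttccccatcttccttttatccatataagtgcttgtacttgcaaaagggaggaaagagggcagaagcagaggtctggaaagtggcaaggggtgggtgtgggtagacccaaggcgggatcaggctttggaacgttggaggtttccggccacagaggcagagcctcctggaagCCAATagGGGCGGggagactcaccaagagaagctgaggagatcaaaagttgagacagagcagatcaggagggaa

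The F3 window was GC-rich, at 70.3% G or C with 32 CpG dinucleotides, against a median of 52.7% and 7 over 32851 promoter windows of that length. Those of Pi16 (53.3%, 3 CpG) and Clec11a (54%, 4 CpG) were near the median in G and C content. F3 held 3 GC boxes, an AP-1 match at position -135 and a TATA match that lay past the start site. Pi16 held 1 CCAAT match at -64, and Clec11a held adjacent CCAAT and GC box matches at -24 and -17. A GC box is in 35.7% of all such windows, a CCAAT box in 37.4%, a TATA box in 13.6%, an E-box in 7.15% and an AP-1 site in 5.20%. A GC box was in both F3 and Clec11a and a CCAAT box in both Pi16 and Clec11a, but no motif searched was in all 3 windows. These matches are a description of the letters only.

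Pdgfra was the most abundant of the 10 markers and Dpp4 the least, in both libraries. QuantSeq reads come from the 3′ end of a transcript, so levels were not divided by length, and how well each 3′ end was captured is unknown. The order in the control library was Pdgfra, Thy1, Ly6a, Pdgfrb, F3, Cd24a, Clec11a, Pi16, Cd34 and Dpp4. Ly6a and Pdgfrb did not differ beyond counting error in either library. The counting intervals of Clec11a and Pi16 overlapped by a small part in the control library, at 2.16 to 4.05 and 0.872 to 2.21 CPM. Such overlap does not show that the levels were alike, and the ratio of this pair was not computed. In the Pink1 siRNA library Pi16 stood above Clec11a without overlap, at 3.83 to 6.23 against 1.27 to 2.80 CPM.

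**Figure D1:**
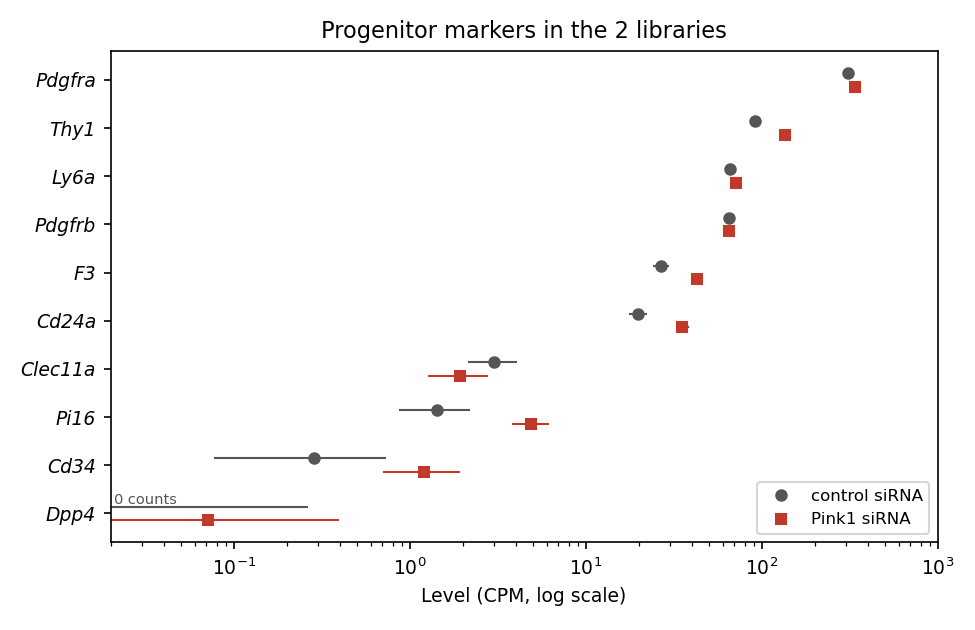
Level of each marker in CPM on a log axis, with circles for the control siRNA library, squares for the Pink1 siRNA library and bars for the 95% Poisson counting interval of each single library. Pdgfra was at 309 and 338 CPM and Dpp4 had 0 and 1 counts. Pi16, Cd24a, F3, Thy1 and, by a small distance, Pdgfra show squares to the right of circles with intervals that do not overlap. Separation by counting error was common: among all rows with at least 40 counts, the counting interval of the ratio lay above 1 for 26.2% and below 1 for 24.9%.

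Measured genes were those with at least 40 counts over both libraries together, which held for 8 of the 10 markers and for 11660 rows of the tables. Calls of higher or lower followed a rule of size, a log2 ratio of at least 1 in size (2-fold) with a 95% counting interval that left out a ratio of 1. By that rule 1 marker, Pi16, was higher and 0 were lower in the Pink1 siRNA library. Over all measured rows 1.63% were higher and 2.39% lower. The counting interval alone lay above 1 for 5 markers and below 1 for 0, against 26.2% above and 24.9% below over all measured rows. A wider interval was also computed, by dividing both counts by the excess spread between the 2 libraries among genes of similar level (20 classes of level, 583 genes each). This widened interval lay above 1 for 4 markers (Pi16, Cd24a, F3 and Thy1), below 1 for 0, and included 1 for the other 4 measured markers, against 2.09% above and 2.01% below over all measured rows. Pi16, Cd24a, F3 and Clec11a were picked into the list with their ratios known, so these counts are descriptions. In bulk RNA, a difference in the number of cells of a state and a difference in RNA per cell cannot be told apart. The median log2 ratio of the 8 measured markers was 0.34, and that of all measured rows was 0.00.

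**Figure D2:**
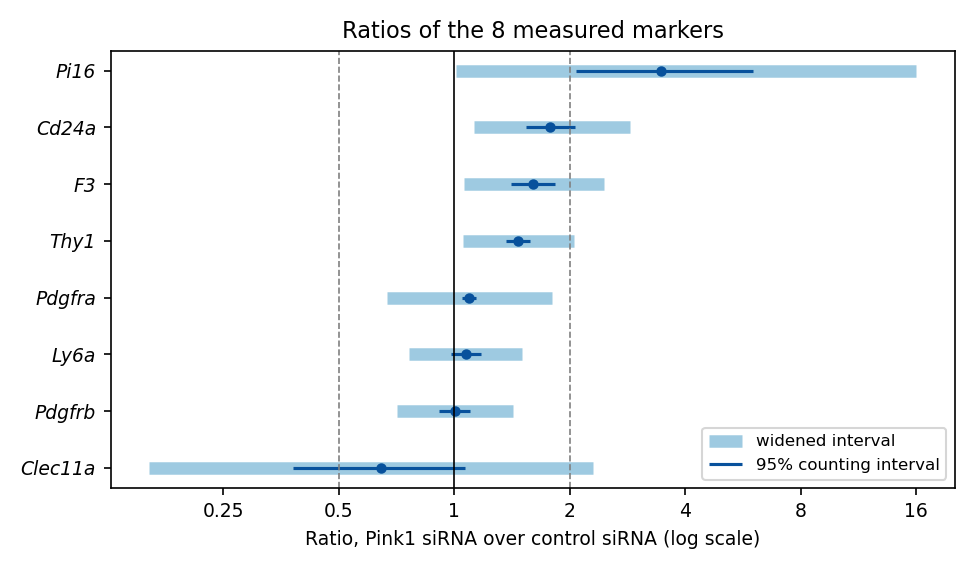
Ratio of the Pink1 siRNA to the control siRNA library for the 8 measured markers on a log axis, with dots for the ratio, thin bars for the 95% counting interval and thick bars for the widened interval. Dashed lines mark 0.5 and 2; Pi16 lies beyond 2, and the thick bars of Pi16, Cd24a, F3 and Thy1 lie to the right of 1.

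Among the markers of multipotent cells, Pi16 was higher by the rule of size, Ly6a had a ratio near 1, and Dpp4 and Cd34 had too few reads to be measured. Pi16 encodes a peptidase inhibitor that marks a widely shared fibroblast state and lies on chromosome 17 from 29318796 to 29328903. It had 20 counts in the control library (1.43 CPM) and 69 in the Pink1 siRNA library (4.93 CPM). Its ratio was 3.45 (counting interval 2.07 to 5.99, widened 1.01 to 16.0), and 5 of the 583 genes in its class of level had a log2 ratio at least as high. That number includes Pi16 itself, and the same holds for each marker ranked in its class below. Pi16 was placed in the list with its ratio known, so its rank is a description. In the class of Pi16 6.86% of genes were higher by the rule of size, since ratios of weakly expressed genes spread widely. GENCODE lists 5 coding transcripts of Pi16 with 5 different 3′ ends over 4665 bases, and which of them the reads came from is not known. An antisense gene, AC162182.1, overlaps Pi16 by 2569 bases and was not analysed here, so its reads cannot be told apart from those of Pi16.

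Ly6a, the gene of the GPI-anchored stem cell antigen Sca-1 (chromosome 15, 74994877 to 74998031), had 929 counts in the control library and 996 in the Pink1 siRNA library. These are 66.3 and 71.1 CPM, a ratio of 1.07 with a counting interval of 0.980 to 1.17 that includes 1. Its neighbour Ly6c1, a related antigen, had 267 and 192 counts, and reads of this family can be shared between copies. Cd34, a sialomucin of progenitor and endothelial surfaces (chromosome 1, 194938821 to 194961292), had 4 and 17 counts and was not measured by the count minimum. Those counts give a ratio of 4.25 (counting interval 1.39 to 17.4). The antisense gene Gm16897 overlaps Cd34 by 5521 bases and had 0 and 5 counts. Dpp4, a membrane peptidase and the namesake of the most primitive adipose progenitors, lies on chromosome 2 from 62330073 to 62412315. It had 0 and 1 counts, both under the 3-count floor, so no fold is given. 

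The PDGF receptors, broad markers of mesenchymal cells, had ratios near 1. Pdgfra (chromosome 5, 75151322 to 75198206) had 4327 counts in the control library and 4733 in the Pink1 siRNA library, or 309 and 338 CPM. Its ratio of 1.09 had a counting interval of 1.05 to 1.14 and a widened interval of 0.667 to 1.80. In its class of level the central 50% of genes had log2 ratios from -0.08 to 0.21, and Pdgfra, at 0.13, lay within that range. Pdgfrb (chromosome 18, 61045127 to 61085067) had 917 and 920 counts, or 65.5 and 65.7 CPM, a log2 ratio of 0.00 (counting interval of the ratio 0.915 to 1.10). The number of Pdgfra reads per Pdgfrb read, which does not depend on scaling, was 4.72 (counting interval 4.39 to 5.07) in the control and 5.14 (4.79 to 5.53) in the Pink1 siRNA library. These intervals overlap.

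Thy1, a small GPI-anchored immunoglobulin-like protein of fibroblasts and neurons, had a higher level in the Pink1 siRNA library, by less than the rule of size. The gene lies on chromosome 9 from 44043384 to 44048579 and had 1289 counts in the control library and 1892 in the Pink1 siRNA library. Its level was 92.0 and 135 CPM, a ratio of 1.47 with a counting interval of 1.37 to 1.58 and a widened interval of 1.05 to 2.06. In its class of level 8 of 583 genes had a log2 ratio at least as high as its 0.55. Thy1 reads per Ly6a read were 1.39 (1.27 to 1.51) in the control and 1.90 (1.76 to 2.05) in the Pink1 siRNA library, without overlap. These are counting intervals, and no widened interval was computed for the pair. That of Ly6a alone, 0.764 to 1.51, included 1. This pair of genes was chosen after the values were seen.

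Cd24a, the gene of a short, heavily glycosylated GPI-anchored antigen, had the second highest ratio of the measured markers. It lies on chromosome 10 from 43579169 to 43584265 and had 279 counts in the control library and 497 in the Pink1 siRNA library, or 19.9 and 35.5 CPM. The ratio was 1.78, short of the rule of size, with a counting interval of 1.54 to 2.07 and a widened interval of 1.13 to 2.86. In its class of level 4 of 583 genes had a log2 ratio at least as high as its 0.83, while 0% of that class was higher by the rule of size. Cd24a was placed in the list with its ratio known, so this rank is a description. The 3 markers held by a GPI anchor thus had ratios of 1.07 (Ly6a), 1.47 (Thy1) and 1.78 (Cd24a).

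Of the regulatory markers, F3 had a ratio above 1 with both intervals above 1, and Clec11a had too few reads to give a direction. F3, the membrane receptor that starts blood clotting (chromosome 3, 121723537 to 121735052), had 375 counts in the control library and 601 in the Pink1 siRNA library. Its level was 26.8 and 42.9 CPM, a ratio of 1.60 with a counting interval of 1.41 to 1.83 and a widened interval of 1.06 to 2.45. In its class of level 5 of 583 genes had a log2 ratio at least as high. Clec11a, the gene of a secreted growth factor that promotes bone formation, lies on chromosome 7 from 44303766 to 44306959. It had 42 counts in the control library and 27 in the Pink1 siRNA library, or 3.00 and 1.93 CPM. The ratio of 0.643 had a counting interval of 0.381 to 1.07 that includes 1, so a difference was not detectable at this depth. In its class of level 132 of 583 genes had a log2 ratio as low or lower. F3 reads per Clec11a read were 8.93 (counting interval 6.48 to 12.6) in the control and 22.3 (15.1 to 34.1) in the Pink1 siRNA library. No widened interval was computed for this pair, and that of Clec11a alone ran from 0.160 to 2.30. The pair was also chosen after the values were seen. Both genes were placed in the list with their ratios known, so their ranks in class are descriptions too.

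**Figure D3:**
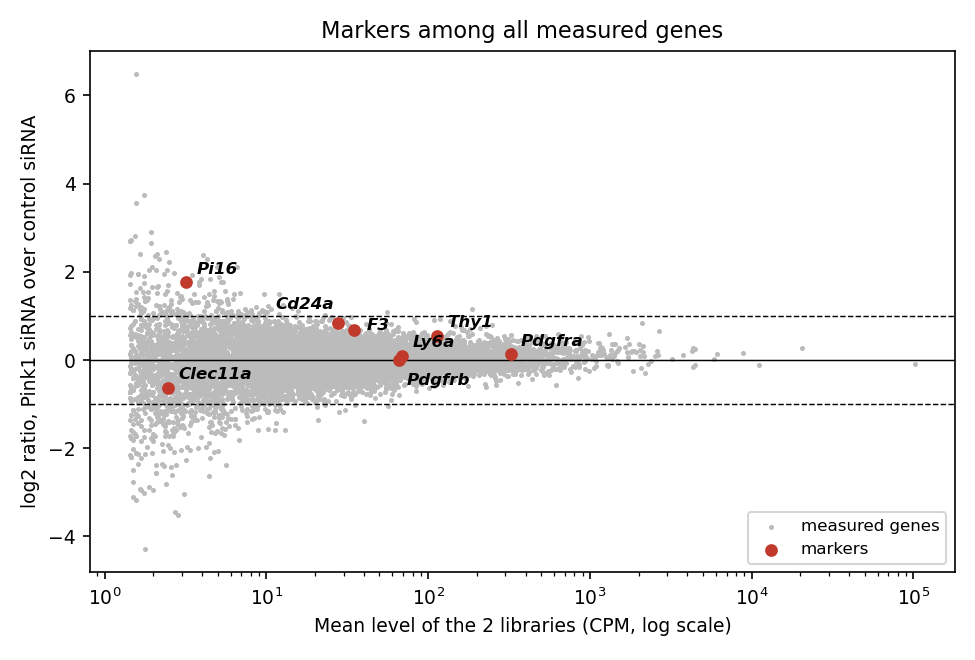
Log2 ratio of the Pink1 siRNA to the control siRNA library against the mean level in CPM (log axis) for the 11660 measured rows (grey), with the 8 measured markers in red. Dashed lines mark a log2 ratio of 1 in size; Thy1, Cd24a and F3 sit at the upper edge of the cloud at their level, Pdgfra, Pdgfrb and Ly6a sit inside it, and Pi16 sits where the cloud is wide.

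Beyond the 10 markers, no measured gene of the 3 progenitor state lists passed the rule of size, although Creb5 passed it under 3 other scalings. In the multipotent list 8 of 14 genes were measured, 1 (Pi16 itself) was higher and 0 lower by the rule of size, and the median log2 ratio was 0.13. Limch1, an actin-binding protein gene, had 113 and 186 counts (ratio 1.65), and the transcription factor gene Creb5 had 96 and 48 (log2 ratio -0.99, just short of the rule). The annexin gene Anxa3 had a ratio of 0.815, the chemokine-scavenging receptor gene Ackr3 had 1.29, and Wnt2 and Bmp7 were at 0 in both libraries. Widened intervals included 1 for these 4 measured genes. In the committed preadipocyte list 10 of 11 genes were measured and 0 passed the rule in either direction, with a median log2 ratio of 0.13. There the basement membrane collagens Col15a1 (38 and 61 counts) and Col4a1 (26317 and 30685) had ratios of 1.61 and 1.17, and the fatty acid transporter Cd36 and carrier Fabp4 had 1.35 and 1.14, all 4 with widened intervals that included 1. The preadipocyte factor gene Dlk1, named after its values were seen, had 116628 and 130666 counts, and its widened interval of 1.02 to 1.23 was the 1 in this list that left out 1.

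The regulatory list, 6 of 8 measured, also had 0 genes past the rule and a median log2 ratio of 0.12. Fmo2, a flavin monooxygenase gene, had 34 and 65 counts, a ratio of 1.91 whose widened interval (0.662 to 6.18) included 1. The matrix calcification inhibitor Mgp had 1.04, the globin Cygb 0.937 and the cholesterol exporter Abcg1 1.15, while Gdf10 and Meox2 were at 0 in both libraries. Of 22 general fibroblast and stromal surface genes, 21 were measured and 0 passed the rule, with a median log2 ratio of -0.03. The microfibril gene Mfap5 had 97 and 150 counts (1.55), the fibroblast protease gene Fap, a relative of Dpp4, 52 and 29 (0.558), the hyaluronan receptor gene Cd44 1545 and 1197 (0.775) and the collagen gene Col1a1 55640 and 63932 (1.15). Of these 4, the widened interval left out 1 for Col1a1.

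Both measured ligands of the PDGF receptors had ratios above 1, and 12 of the 15 measured ligand and adaptor genes had ratios below 1, all short of the rule. The list held 17 genes, 0 of those measured were higher or lower, and the median log2 ratio was -0.14. Among all measured rows 51.1% had a ratio above 1. Pdgfa, a ligand of the alpha receptor, had 756 and 964 counts, a ratio of 1.28 (counting interval 1.16 to 1.40). Pdgfc, another ligand of that receptor, had 311 and 428 counts, a ratio of 1.38 (1.19 to 1.60). Pdgfd was at 0 in both libraries and Pdgfb had 2 and 4 counts. The phospholipase gene Plcg1 had 398 and 280 counts (0.704) and the adaptor gene Crkl 691 and 531 (0.769). Widened intervals included 1 for all 15 measured genes of the list.

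Around F3, most proteases, receptors and inhibitors of clotting and fibrinolysis had ratios below 1. Of 14 such genes 9 were measured, 8 had a ratio below 1, and the median log2 ratio was -0.36. Among all measured rows 51.1% had a ratio above 1. The widened interval lay below 1 for 1 of the 9 and above 1 for 0. The urokinase gene Plau was lower by the rule of size, with 55 counts in the control and 25 in the Pink1 siRNA library (widened interval 0.113 to 1.52). The thrombin receptor gene F2r had 1029 and 785 counts (0.763) and the inhibitor gene Tfpi2 28 and 15 (0.536). The clotting factor gene F7, whose protein is the ligand of F3, was at 0 in both libraries. Acta2, named above as the main mural marker, had 4408 and 2967 counts, and its part in these values was not tested.

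Genes that build and attach GPI anchors, the membrane tether of Ly6a, Thy1 and Cd24a, were balanced around a ratio of 1. Each of the 25 passed the count minimum. Ratios were above 1 for 13 and below 1 for 12, the median log2 ratio was 0.00, and 0 passed the rule in either direction. Pigt, a subunit of the transamidase that attaches the anchor, had 175 and 291 counts (1.66). The synthesis genes Pigw and Pigl and the remodelling gene Pgap3 had ratios of 0.639, 0.658 and 0.667. All 4 widened intervals included 1.

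Among binding partners of the markers, 9 of 14 were measured and 1 was higher by the rule of size. It was Ada, adenosine deaminase, which in humans binds DPP4 at the cell surface, with 26 and 68 counts (ratio 2.62, counting interval 1.64 to 4.28, widened 0.841 to 9.91). Cxcl12, a chemokine that DPP4 cleaves, had 2304 and 1671 counts, a ratio of 0.725 with a widened interval of 0.538 to 0.974. The integrin genes Itgav and Itga5 had ratios of 0.789 and 1.22, and Itga11, which encodes a receptor chain for CLEC11A, had 3 and 0 counts. Of 24 relatives of the markers 10 were measured and 0 passed the rule, with a median log2 ratio of -0.10. Besides Fap and Ly6c1, given above, the intracellular peptidase genes Dpp8 and Dpp7 had ratios of 0.825 and 1.25. Kit, the receptor gene next to Pdgfra, was at 0 in both libraries.

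**Figure D4:**
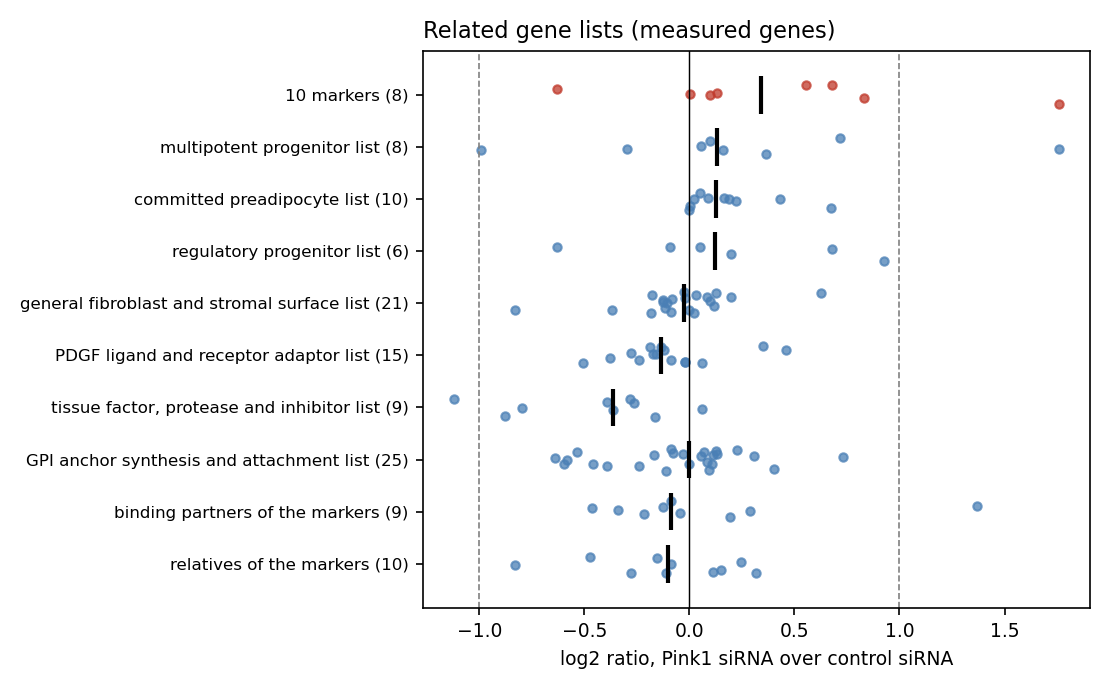
Log2 ratio of the Pink1 siRNA to the control siRNA library for each measured gene (dots) of the 10 markers (red) and 9 related lists (blue), with the number measured in parentheses, a black bar at each median and dashed lines at a log2 ratio of 1 in size. The medians run from -0.36 for the tissue factor list to 0.34 for the 10 markers, 4 of which were placed in the list with their ratios known; vertical scatter within a row has no meaning.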

How the data were processed

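Total RNA of 3T3-L1 cells was extracted with Trizol and made into QuantSeq 3′ libraries, per the labels' protocols, with 1 library for the control siRNA and 1 for the Pink1 siRNA. The mm10 build, bcl2fastq 2.20.0.422, Bowtie2 and bedtools are named per the submitters' processing notes. Not given in the sources used here are the gene annotation, the use of strand and the placement of multiply mapped reads. The deposited values are raw read counts per gene symbol (23282 rows), and the unit was read from the values. The precursor ribosomal RNA row held 10.8% and 9.83% of the counts and was kept.

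Counts were scaled by TMM effective library sizes (edgeR 4.0.16, R 4.3.3). The log2 ratio was taken after adding 0.5 to the scaled counts, and plain ratios were taken without it. The 95% intervals are exact (conditional binomial for ratios, Poisson for levels, SciPy 1.17.1). They cover counting error only, since each group has 1 library. Reads of 1 molecule cannot be separated without molecular identifiers, so the intervals may be too narrow even for counting error. The code was tested on simulated data. With 1 library per group no test was possible and no p-value was computed, and with 2 libraries genes could not be ranked by likeness of pattern. The alternatives were other scalings (total counts with and without the ribosomal row, DESeq2 1.42.0 size factors, upper quartile), 5 counts added, other count minimums, other ratios, and no interval or a widened interval.

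The 10 markers, the gene lists and the rules were chosen with earlier results of these data known. Pi16, Cd24a, F3 and Clec11a are the genes that an earlier description of these data named for the size of their ratios in a wider list of progenitor markers. The count of markers with large ratios is therefore not independent evidence. From each related list, up to 4 measured genes with the largest log2 ratio in size were named, and genes at or near 0 counts and nearby genes were named in addition, after their values were seen. One gene that this rule takes is not reported here. Coordinates (1-based) and promoters are from RefSeq on GRCm38.p6, the assembly behind mm10, and 3′ ends and overlaps are from GENCODE M21.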

Additional observations from a re-analysis of the deposited data

How the results depend on the processing

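With 1 library per group, none of these differences has a replicate check. No paired analysis was possible because each group has 1 library. The number of markers higher by the rule of size, 1 in the analysis above, was 2 with no count minimum (Cd34 joined Pi16), 0 with a summed count of at least 200, which leaves Pi16 out, 3 at a ratio of 1.5 and 0 at a ratio of 4. The median log2 ratio of the markers was 0.62 with no count minimum, where Dpp4 (0 and 1 counts) and Cd34 (4 and 17 counts) enter. The log2 ratio of Dpp4 rests there on the 0.5 added to its counts. Over all rows 190 were higher and 279 lower, and the numbers were 597 and 853 with no count minimum, 26 and 40 at a summed count of 200, 633 and 774 at a ratio of 1.5, 23 and 44 at a ratio of 4, and 48 and 81 with the widened interval. The log2 ratios of single markers could move only little by the choice of alternatives. Count minimums, ratio rules and intervals leave a log2 ratio unchanged. Other scalings shift all genes nearly alike, and only the 5 added counts act gene by gene. Across the alternatives Pi16 had a log2 ratio of 1.57 to 1.76, Cd24a 0.77 to 0.83, F3 0.62 to 0.68, Thy1 0.50 to 0.55 and Clec11a -0.68 to -0.55. Pdgfrb took either sign (-0.05 to 0.00), being below 0 with total counts, with or without the ribosomal row, and with upper quartile scaling. Creb5 became lower by the rule under those same 3 scalings. Plau and Ada both lost their calls at a summed count of 200, at a ratio of 4 and with the widened interval, and Plau also with 5 counts added.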

Other observations

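The nearest coding genes on each side of a marker, among those with a row in the tables, were also read out. Each pair of counts is a single library per group, with no replicate check. Beside Pi16, BC004004 had 682 counts in the control and 819 in the Pink1 siRNA library, and the mitochondrial carrier homologue Mtch1, 1479 bases away, had 3236 and 3519. Beside F3, the peroxisomal transporter gene Abcd3 had 1519 and 1529 counts. For Thy1, the deubiquitinase gene Usp2, 18442 bases away, had 325 and 296 counts, and Trim29, 707269 bases away, had 15 and 31. For Cd24a, 1700021F05Rik, 37290 bases away, had 465 and 346 counts, and Qrsl1, 289923 bases away, had 88 and 113. Near Pdgfrb, the receptor gene Csf1r had 25 and 11 counts, and near Pdgfra, Gsx2 and Kit were at 0 in both libraries.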
